A study of Mus musculus with 12 samples.

Results

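The insulin and insulin-like growth factor (IGF) signaling genes were the 10 genes of the count table whose gene name was Igf1, Igf1r, Insr, Irs1, Irs2, Igfbp2, Igfbp3, Igfbp4, Igfbp5 or Igfbp7, of 54232 genes in all. They were taken by name, and each name matched 1 row. Their RNA was measured in 12 tumors of the SVR line, a transformed mouse endothelial cell line that grows as an angiosarcoma under the skin of nude mice, with 3 tumors per treatment. Control mice received vehicle, trametinib treated mice 1 mg/kg of this MEK inhibitor, cediranib treated mice 3 mg/kg of this VEGF receptor inhibitor, and combination treated mice both drugs at these doses. Dosing was daily by gavage, started 3 to 7 days after the cells were placed, in hosts of 8 to 12 weeks by the study's methods. The strain label of every tumor was C57BL/6. The model is 1 cell line, and a lysate of a whole tumor can hold stroma and skin beside tumor cells, whose RNA is of the same species. By the labels, dosing ended when a tumor ulcerated or passed a size limit. The study also had an experiment with a common harvest day, and since the source of these tumors among the experiments is unclear, time on drug may or may not have differed between groups. In bulk RNA, fewer cells of a type and less RNA per cell cannot be told apart.

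Insulin and IGF-I act through related receptor tyrosine kinases, encoded by Insr and Igf1r, which phosphorylate the adaptor proteins Irs1 and Irs2. The adaptors recruit PI3K, which activates AKT, while the same receptors also feed the RAS, MEK and ERK cascade that trametinib blocks. IGF binding proteins, the Igfbp genes, carry IGFs outside the cell and keep them from or deliver them to the receptor, and the transcription of Irs2 is known to be induced by FOXO factors when insulin signaling is low.

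Of the 10 genes, 9 had a promoter in the RefSeq table for GRCm38.p6, which gives 250 bases before and 50 after a gene's start. Of these, 100 upstream bases each are shown for Irs1 and Irs2, the adaptor pair whose levels under trametinib lay on opposite sides of control, and for Igfbp3, which was lower in combination treated tumors than in every other group. All 3 lie on the minus strand and are written 5′ to 3′ along the gene. In Irs1 (chr1:82291490-82291589) and Irs2 (chr8:11008930-11009029) capitals mark the E-box CACGTG and the forkhead variant TGTTTTG known from insulin response elements, which overlap in Irs1. In Igfbp3 (chr11:7213924-7214023) capitals mark the ETS core CCGGAA read on the other strand.
Irs1: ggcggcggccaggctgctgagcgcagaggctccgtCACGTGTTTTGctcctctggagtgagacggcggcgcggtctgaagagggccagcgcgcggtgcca
Irs2: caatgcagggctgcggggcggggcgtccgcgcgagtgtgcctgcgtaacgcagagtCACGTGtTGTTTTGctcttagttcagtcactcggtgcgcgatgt
Igfbp3: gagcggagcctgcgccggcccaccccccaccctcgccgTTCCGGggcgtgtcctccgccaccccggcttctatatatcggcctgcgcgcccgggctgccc

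Searched on both strands, CACGTG was in 7.15% and TGTTTTG in 6.28% of 32851 promoter windows of this length, and both together were in 0.408%. Irs1 and Irs2 were the only ones of the 9 genes with both. The ETS core was in 14.9% of windows, among them those of Igfbp3 and Irs1. The forkhead motif TGTTTAC was in 3.65% of windows and in 0 of the 9 genes, the AP-1 motif TGACTCA in 5.2% and in Igfbp2, and the TATA box letters TATAAA in 13.6% and in Igfbp4. The GC box GGGCGG was in 35.7% of windows and in 5 of the 9 genes. The motifs were picked after the sequences had been seen, and a match is a description of letters, not a binding site.

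The libraries held 9478865 to 11666094 counts, and all 10 genes passed the filter on low counts. Igfbp2 passed through the 3 trametinib libraries alone, and the other 9 genes in all 12 libraries. Values are CPM, a gene's counts relative to the library's TMM-scaled total, at which 3 counts, the limit that a count of 0 allows, equal 0.251 to 0.349 CPM by counting error only. Dusp6 and Etv5, which ERK signaling induces, served as the check of MEK inhibition. Dusp6 was at 39.0 to 47.7 CPM in control, 1.98 to 4.54 in trametinib, 41.4 to 43.6 in cediranib and 10.2 to 13.9 in combination treated tumors. The log2 fold changes of Etv5 were -3.67 with trametinib and -2.09 with the combination. Dusp6 and Etv5 were both higher in combination than in trametinib treated tumors (log2 fold change 1.79 and 1.58, edgeR FDR 0.0196 and 0.0269). Of the endothelial markers, Tie1 and Cdh5 were at 140 and 73.7 CPM on average in control tumors, while Emcn had no count in 5 of 12 libraries. Control 2 and trametinib 2 stood apart in skeletal muscle transcripts, whose 10 marker genes summed to 18700 and 27800 CPM, against at most 2170 in the other libraries.

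Per kilobase of the deposited gene length, the highest level in control tumors was that of Igfbp7 at 45.8 ± 24.7 CPM per kb (SD, n = 3), followed by Irs2 at 29.5 ± 10.9 and Igfbp4 at 16.9 ± 6.87. Igfbp3, Igf1r and Insr came next at 9.86 ± 3.796, 9.01 ± 2.26 and 5.79 ± 0.458 CPM per kb. Igfbp5 was at 2.23 ± 1.83, Irs1 at 1.53 ± 0.498, Igf1 at 1.15 ± 0.253 and Igfbp2 at 0.171 ± 0.110 CPM per kb. Neighbours in this order lay within 1 SD of each other's range, except that Igf1r was above Insr, Insr above Igfbp5 and Igf1 above Igfbp2 beyond their spread. Since libraries were made by exome capture, a gene's level also depends on its probes. The study chose this method because RNA of the tumors was often degraded. Of the other ligands and carriers, Ins1, Ins2 and the adaptor Irs3 had 0 counts in all libraries, Igf2 had 2 counts and Igfbp1 had 1 count in total, so Igf1 was the only ligand gene of the family that could be tested.

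**Figure D1:**
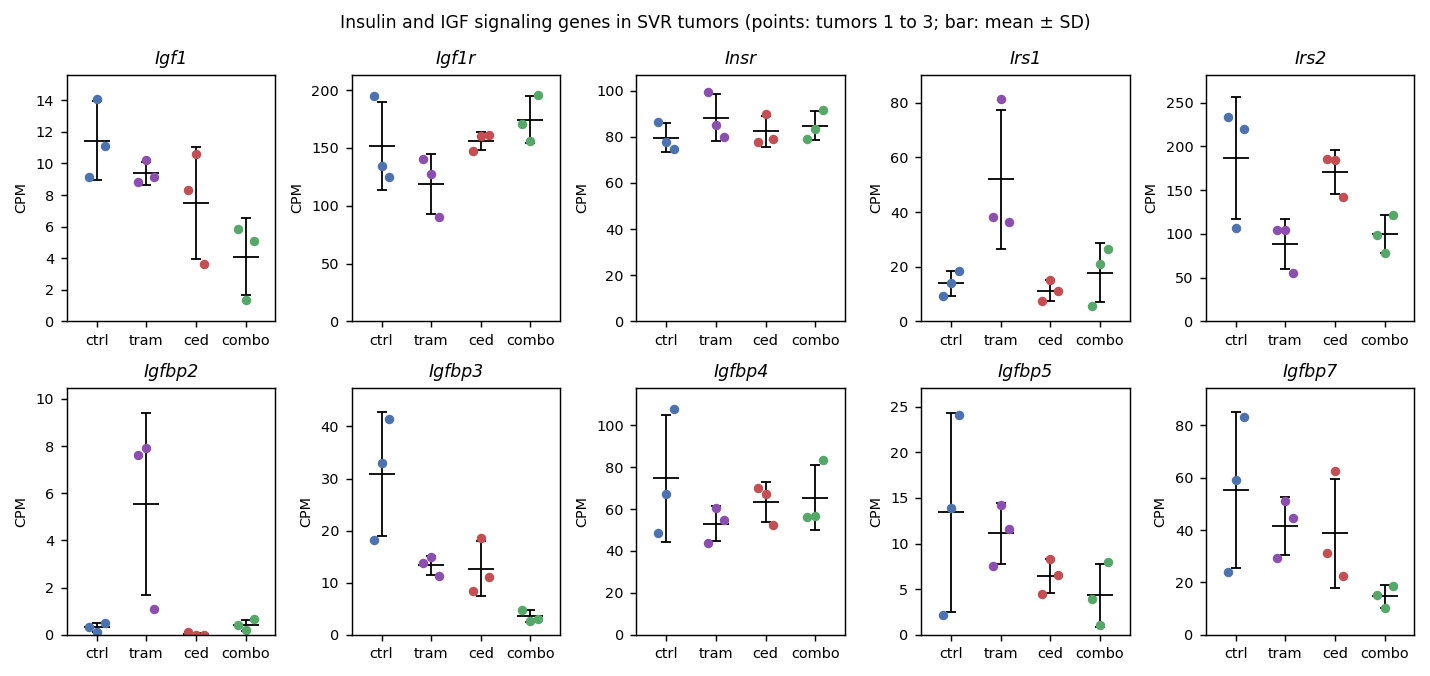
CPM of the 10 genes in each tumor (points, tumors 1 to 3 from left to right) with mean and SD, for control (ctrl), trametinib (tram), cediranib (ced) and combination (combo) treated tumors on linear axes from 0. Irs1 and Igfbp2 stand highest in the 3 trametinib tumors, Igfbp3 lowest in the 3 combination tumors, and Insr is level throughout.

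With trametinib alone, Irs1 and Igfbp2 rose, 2 of the 10 genes, and none fell. Among all 12897 genes tested, 6.12% passed an edgeR FDR (Benjamini-Hochberg adjusted p) of 0.05 in this comparison and 2.64% were higher. Igfbp2 passed the filter on low counts only through the trametinib libraries and so had to differ in this comparison. Of the other 9 genes 1 rose, Irs1, which is the count to read against the background. The median log2 fold change of these 9 genes was -0.35, against 0.0057 over all genes. The values of 3 of the 9 did not overlap between the groups, Irs1 on the higher and Irs2 and Igfbp3 on the lower side, which was also so for 25.8% of all genes.

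With cediranib alone, 0 of the 10 genes and 0.00% of all genes passed the edgeR FDR, and DESeq2 also gave 0 of the 10. Without the filter on low counts, Igfbp3 and Igfbp5 passed. Over the alternatives the number of all genes passing ranged from 0 to 489, so these 2 are not to be read alone. At an unadjusted p of 0.05, 1 of the 10 genes, Igfbp3, and 4.32% of all genes passed. Only Igfbp2, near the limit of detection in both groups, had values that did not overlap, beside 7.76% of all genes. The median log2 fold change of the other 9 genes was -0.30.

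With the combination, Igfbp3 and Igfbp7 fell against control, 2 of the 10 genes, beside 9.98% of all genes in either direction and 5.13% on the lower side. Values did not overlap for Igfbp3, Igfbp7 and Igf1, all lower, beside 31.3% of all genes. Against trametinib treated tumors, Igfbp2 and Igfbp3 were lower, 2 of the 10 genes, where 0.969% of all genes passed and 0.248% on the lower side. Igfbp2 again had to differ by the filter, which leaves 1 of the other 9 genes, Igfbp3. Values did not overlap for 5 of these 9 genes in that comparison, beside 24.2% of all genes. Against cediranib treated tumors, Igfbp3 was lower, 1 of the 10 genes, beside 7.68% of all genes in either direction and 3.78% on the lower side, and 4 genes did not overlap, beside 28.4%. The comparisons share their control or single drug tumors and are not independent of one another. Whether the effect of cediranib differed with and without trametinib was tested by an interaction contrast, which 0 of the 10 genes and 0.00% of all genes passed by the edgeR FDR. DESeq2 also gave 0 of the 10 genes, and edgeR without the filter on low counts gave 2, while all genes passing ranged from 0 to 373 over the alternatives. At an unadjusted p of 0.05 there were 0 of the 10 and 7.05% of all genes. Nothing in the sources says whether a group's tumors came from separate cell batches, so the p-values measure the spread between these tumors.

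**Figure D2:**
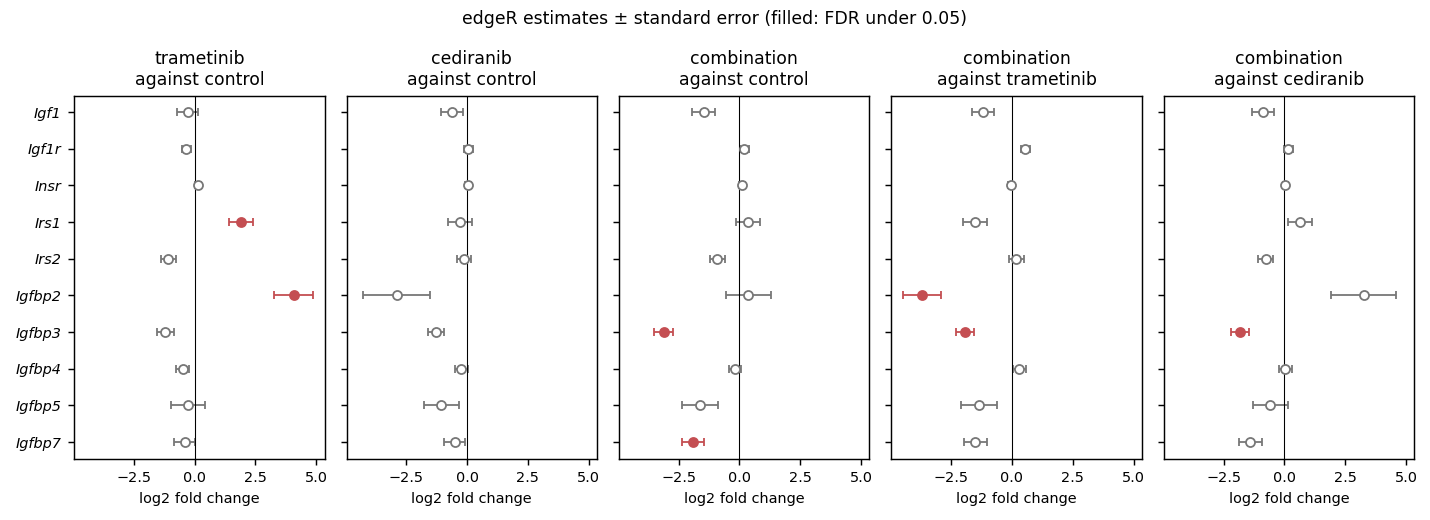
Log2 fold changes of the 10 genes with standard errors from the edgeR fit, in 5 comparisons of the 4 groups of 3 tumors. Filled red points passed an FDR of 0.05: Irs1 and Igfbp2 to the right with trametinib, Igfbp3 and Igfbp7 to the left with the combination, Igfbp2 and Igfbp3 against trametinib and Igfbp3 against cediranib.

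Igf1 (ENSMUSG00000020053, chr10:87858265-87930895 of GRCm38) encodes the ligand IGF-I, made in tumors largely by stromal cells and macrophages. It was at 9.11, 14.1 and 11.1 CPM in control tumors 1 to 3, and at 8.81, 10.2 and 9.13 with trametinib. Cediranib treated tumors had 8.29, 10.6 and 3.64 CPM, and combination treated tumors 5.86, 1.36 and 5.10. The combination values were all below those of control and trametinib treated tumors, but overlapped with cediranib. The difference from control had a log2 fold change of -1.48 ± 0.46 (SE) and did not pass (edgeR FDR 0.0634).

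For the receptors no comparison passed. Insr (ENSMUSG00000005534, chr8:3122061-3279617), the insulin receptor, lay between 74.5 and 99.6 CPM in all 12 tumors, and its groups overlapped in every comparison. Its log2 fold change against control was 0.15 with trametinib (95% interval -0.11 to 0.41), 0.05 with cediranib (-0.21 to 0.31) and 0.09 with the combination (-0.17 to 0.35). Igf1r (ENSMUSG00000005533, chr7:67952827-68233668), the IGF-I receptor, was at 195, 134 and 125 CPM in control tumors and at 140, 127 and 90.1 with trametinib. It was at 147, 160 and 161 CPM with cediranib and at 171, 156 and 196 with the combination. All 3 combination values lay above the 3 trametinib values, with a log2 difference of 0.55 ± 0.19 that did not pass (edgeR FDR 0.162).

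Irs1 (ENSMUSG00000055980, chr1:82233101-82291416) encodes an adaptor that links both receptors to PI3K. It was at 9.28, 14.2 and 18.4 CPM in control tumors and at 38.1, 81.4 and 36.3 CPM with trametinib. It was at 7.59, 15.2 and 11.1 CPM with cediranib and at 5.76, 21.1 and 26.6 CPM with the combination. The trametinib treated tumors were the 3 highest of the 12, and the other 3 groups overlapped with each other. Irs1 was 3.72-fold higher with trametinib than in control (log2 fold change 1.90 ± 0.50, edgeR FDR 0.0452). This value lay close to the threshold: without any 1 of the 6 libraries the log2 fold change was 1.42 to 2.14 and the edgeR FDR 0.0633 to 0.151. With the epidermal or the endothelial score as a covariate it was 1.62 or 2.62 (edgeR FDR 0.109 in both fits). The combination against control gave 0.36 ± 0.49, which did not pass (edgeR FDR 0.691), and the difference from trametinib alone, -1.54 ± 0.49, did not pass (edgeR FDR 0.139).

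Irs2 (ENSMUSG00000038894, chr8:10984681-11008458), the other adaptor, lay on the opposite side of control under trametinib. It was at 233, 107 and 220 CPM in control tumors and at 105, 104 and 55.3 CPM with trametinib. Cediranib treated tumors had 186, 184 and 142 CPM, and combination treated tumors 98.4, 78.6 and 122. Control 2, at 107 CPM, lay within the range of the combination and just above trametinib tumors 1 and 2. The log2 fold change was -1.08 ± 0.30 with trametinib and -0.91 ± 0.30 with the combination, and neither passed (edgeR FDR 0.0571 and 0.0785). Each passed in 4 of 15 alternatives, among them the fit without control 2 and DESeq2. Over the alternatives other than those without 1 library, the log2 fold change was -1.50 to -0.63 with trametinib (edgeR FDR up to 0.576). With the combination it was -1.18 to -0.30 (edgeR FDR up to 0.917). The transcript 9530052E02Rik overlaps exons of Irs2 on the opposite strand, and with a strand setting not given in the sources used here, reads of the pair cannot be told apart.

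Within a library, Irs1 had 0.0399, 0.132 and 0.0837 counts per count of Irs2 in control tumors and 0.362, 0.784 and 0.658 in trametinib treated tumors. In cediranib treated tumors the ratio was 0.0409, 0.0827 and 0.0783, and in combination treated tumors 0.0585, 0.268 and 0.218. The ratio was thus highest in the 3 trametinib treated tumors, 7.51-fold above control, without overlap. An exact two-sided permutation test gave p = 0.1 for this, the smallest p that 3 against 3 tumors allow, and an adjusted p of 0.375 over the 15 such tests made. For Igf1r to Insr, the ratio was 2.25, 1.72 and 1.68 in control tumors and 1.40, 1.495 and 1.13 with trametinib, lower in all 3 tumors. It was 1.89, 1.78 and 2.03 with cediranib and 2.16, 1.86 and 2.14 with the combination. The exact permutation p was again 0.1 (adjusted 0.375), both for trametinib against control and for the combination against trametinib.

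**Figure D3:**
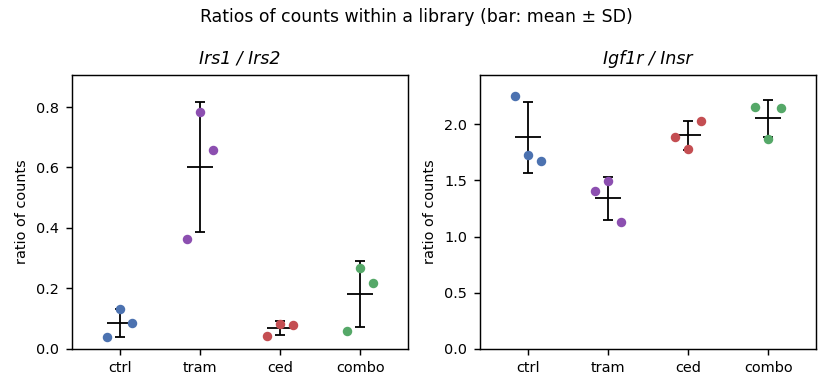
Count ratios Irs1 to Irs2 and Igf1r to Insr within each library (points) with mean and SD, for the 4 groups of 3 tumors on axes from 0. The 3 trametinib tumors lie above the control tumors for the adaptors and below them for the receptors.

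Among the binding proteins, Igfbp3 (ENSMUSG00000020427, chr11:7206086-7213897), the main carrier of IGFs in blood, had the smallest FDR of the 10 genes. It was at 18.1, 33.0 and 41.5 CPM in control tumors and at 13.7, 15 and 11.3 CPM with trametinib. It was at 8.39, 18.6 and 11.1 CPM with cediranib and at 4.85, 2.72 and 3.06 CPM with the combination. The combination treated tumors were the 3 lowest of the 12, and the trametinib treated tumors all lay below the control tumors. Igfbp3 was 8.70-fold lower with the combination than in control (log2 fold change -3.12 ± 0.38, edgeR FDR 0.000931). It was 3.76-fold lower than with trametinib (-1.91 ± 0.37, FDR 0.0402) and 3.59-fold lower than with cediranib (-1.84 ± 0.37, FDR 0.0131). Either drug alone gave -1.21 ± 0.34 with trametinib and -1.28 ± 0.34 with cediranib, and neither passed by edgeR as reported (FDR 0.0592 and 0.999). Of 15 alternatives, the difference passed in 5 with trametinib and in 1 with cediranib. With trametinib it ranged from -1.61 to -0.093 over the alternatives (edgeR FDR up to 0.96). The interaction was -0.63 ± 0.50 on the log2 scale (edgeR FDR 0.833), so a departure from the sum of the single drug effects was not detected.

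The difference of Igfbp3 between combination and control passed in 14 of 15 alternatives, including each fit without 1 library. With the endothelial score as a covariate it was -1.67 (edgeR FDR 0.192). The difference from trametinib passed in none of the 6 fits without 1 library (FDR 0.0749 to 0.130), and with the epidermal score as a covariate it was -0.46 (edgeR FDR 0.968). The difference from cediranib was lost without combination 2 or combination 3, where the log2 fold changes were between -2.12 and -1.46 over all 6 such fits and the edgeR FDR at most 0.0548. With the endothelial score it was -0.84 (edgeR FDR 0.323).

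Igfbp2 (ENSMUSG00000039323, chr1:72824503-72852474), a binding protein with preference for IGF-II, was scarce outside the trametinib group. It had 4, 1 and 5 counts in control tumors, 84, 68 and 13 with trametinib, 1, 0 and 0 with cediranib and 4, 2 and 7 with the combination. In CPM the trametinib treated tumors were at 7.63, 7.91 and 1.09, against at most 0.650 in any other tumor. All 3 were above the other 9 tumors, with trametinib 3 far below the other two. The log2 fold change was 4.07 ± 0.81 with trametinib against control (edgeR FDR 0.0113) and -3.71 ± 0.78 for the combination against trametinib (FDR 0.0489). The gene passed the low-count filter through the trametinib libraries alone, so neither FDR is support for a difference. From summed counts, trametinib was 16.5 times control, with a 95% interval of 8.74 to 35 that covers counting error only. Cediranib, with 1 count in all, was at 0.102 times control (0.00234 to 0.714, again counting error only). Between tumors its log2 fold change against control, -2.89 ± 1.38, did not pass (edgeR FDR 0.999). The call of trametinib against control, with this limit, passed in 14 of 15 alternatives. It was lost without the muscle-rich libraries control 2 and trametinib 2 (3.34, edgeR FDR 0.122). The call against trametinib passed in 4 of 15, and of the fits without 1 library only in that without trametinib 3. With the epidermal score it was -5.21 (edgeR FDR 0.884) and with the endothelial score -2.94 (edgeR FDR 0.133).

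Igfbp7 (ENSMUSG00000036256, chr5:77349240-77408041), a matrix-bound protein related to the IGF binding proteins and abundant in tumor vessels, was at 23.8, 59.1 and 83.2 CPM in control tumors. It was at 29.4, 51.0 and 44.5 CPM with trametinib and at 31.2, 62.4 and 22.5 CPM with cediranib. Combination treated tumors had 15.1, 10.2 and 18.8 CPM, the 3 lowest values of the 12. Igfbp7 was 3.76-fold lower than in control (log2 fold change -1.91 ± 0.46, edgeR FDR 0.0254). The differences of the combination from trametinib, -1.5 ± 0.46, and from cediranib, -1.39 ± 0.46, did not pass (edgeR FDR 0.125 and 0.0894). The call against control passed in 7 of 15 alternatives. It was lost without control 2, control 3 or any 1 of the combination tumors (log2 fold change -2.28 to -1.495 over the fits without 1 library), and with the endothelial score as a covariate its direction turned (0.27, edgeR FDR 0.919). With the epidermal score it was -0.41 (edgeR FDR 0.794). An exon of Polr2b overlaps Igfbp7 on the opposite strand.

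**Figure D4:**
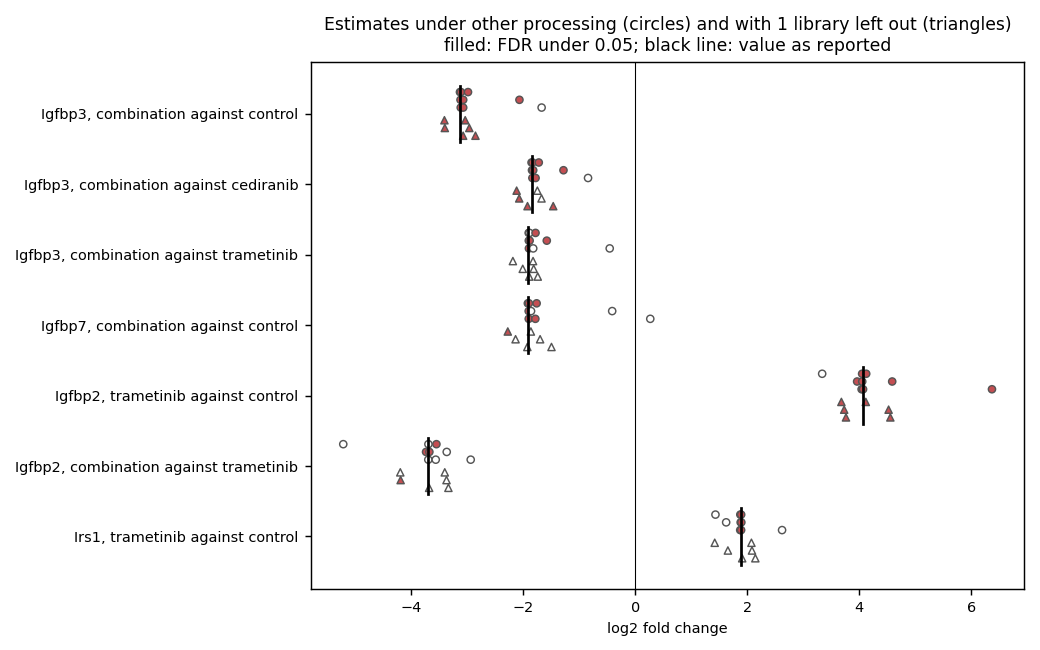
Log2 fold changes of the 7 differences that passed, under other processing (circles) and without 1 library (triangles), with the reported value as a line and an FDR under 0.05 as filled symbols, offset vertically to keep points apart. Igfbp3 against control and Igfbp2 with trametinib are filled in 14 of 15 alternatives each, Irs1 in 6. Igfbp2 entered the test through the trametinib libraries alone, so its filled symbols are no support for a difference.

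Igfbp4 (ENSMUSG00000017493, chr11:99041244-99051701), which holds IGFs from the receptor until it is cleaved, was at 48.6 to 108 CPM in control, 43.8 to 60.5 in trametinib, 52.6 to 70.2 in cediranib and 56.1 to 83.2 in combination treated tumors. All groups overlapped, and its log2 fold change against control was between -0.49 and -0.19. Igfbp5 (ENSMUSG00000026185, chr1:72857932-72874884), a binding protein of connective tissue, had the widest spread within a group among the 10 genes, with 2.21, 13.9 and 24.1 CPM in control tumors (SD of log2 CPM 1.74). It was at 7.54, 14.2 and 11.6 CPM with trametinib, 4.50, 8.32 and 6.51 with cediranib and 3.94, 1.09 and 7.98 with the combination. The log2 fold change of the combination against control, -1.62 ± 0.73, did not pass (edgeR FDR 0.177). Summed over the 5 binding protein genes, levels were 93.1 to 257 CPM in control and 71.1 to 114 CPM in combination treated tumors, and the groups overlapped in all 5 comparisons.

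Beyond the 10 genes, 83 further pathway and feedback genes were listed, of which 69 were tested. With trametinib 4 rose and 1 fell, with cediranib 0 passed by edgeR, and with the combination 5 rose and 3 fell, which is 7.25% and 11.6% of 69 beside 6.12% and 9.98% of all genes. Against trametinib 0 of 69 passed by edgeR for the combination, where 0.969% of all genes did. Against cediranib 9 were higher and 1 lower, which is 14.5% of 69 beside 7.68% of all genes. By list, 1 of 18 genes of PI3K, AKT and their phosphatases rose and 1 fell with trametinib. Of the 11 genes of TSC and mTOR 1 rose, of the 4 FOXO factors 1 rose, and of 17 tested FOXO-induced genes 1 rose. With the combination, 2 of the FOXO factors and 1 FOXO-induced gene rose, 1 of 9 adaptors and 1 of 6 brakes on the receptor fell, and 2 of the 18 PI3K list genes rose and 1 fell. By the naming rule, which took genes past the FDR that also had a log2 fold change of 1.5 or more in size, 3 genes are named.

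Pik3r3, a regulatory subunit of PI3K that binds IRS proteins, was at 12.7, 12.9 and 12.4 CPM in control and at 35.8, 36.2 and 40.4 CPM in trametinib treated tumors. It was at 14.1, 10.0 and 20.5 CPM with cediranib and at 45.8, 30.9 and 21.8 CPM with the combination. Both trametinib groups lay above all control and cediranib treated tumors, with log2 fold changes against control of 1.56 ± 0.28 and 1.37 ± 0.28 (edgeR FDR 0.00606 and 0.0115).

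Enpp1, a membrane protein that inhibits the insulin receptor, was at 7.15, 16.6 and 12.1 CPM in control and at 2.83, 1.09 and 1.58 CPM in combination treated tumors. It fell by 2.71 ± 0.63 on the log2 scale (edgeR FDR 0.0208), with trametinib values from 3.43 to 21.8 CPM. Foxo6, a FOXO factor held in check by insulin signaling, was at 0.937, 0.203 and 0.707 CPM in control and at 2.73, 1.45 and 14.7 in combination treated tumors (log2 fold change 3.30 ± 0.80, edgeR FDR 0.0254). With trametinib it was at 3.45, 5.47 and 5.19 CPM, above all control tumors, and did not pass (2.88 ± 0.81, edgeR FDR 0.0565). Named after their values were seen, Foxo1 rose with the combination (1.22, edgeR FDR 0.0188), Foxo3 with trametinib (0.98, FDR 0.0143), and Sesn1, a FOXO and p53 target that restrains mTOR, with both (1.28 and 1.01, FDR 0.00433 and 0.0132).

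Markers of cell types moved with the treatments. As SVR is an endothelial line, the endothelial markers can come from the tumor cells as well as from host vessels. The 13 endothelial markers summed to 214 to 455 CPM in control, 55.1 to 116 in trametinib, 128 to 339 in cediranib and 36.2 to 88.5 in combination treated tumors. Of the 11 tested, 5 fell with trametinib and 7 with the combination. The 17 epidermis markers summed to 24.2 to 643 CPM in control, 4.60 to 10.7 in trametinib, 45.6 to 2950 in cediranib and 3060 to 4590 in combination treated tumors, and 5 of 14 tested were higher with the combination. Krt1, Dsc3, Pkp1 and Perp had no count in 5 libraries each.

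The 12 fibroblast markers summed to 2030 to 21000 CPM in control, 8100 to 36900 in trametinib, 1590 to 6720 in cediranib and 2640 to 5330 in combination treated tumors. Of 8 tested, 1 rose with trametinib, where Irs1 and Igfbp2 were high. Most of the sum was Col1a1, on average 7792 CPM in control and 3191 in combination treated tumors. Col1a2 was also lower in the combination, while Dcn (3.04 and 9.68 CPM) and Pdgfra (14.7 and 24.5) were higher. The median log2 fold change of the 8 was -0.15 with the combination. The 11 macrophage markers summed to 408 to 703 CPM in control and 182 to 316 CPM in combination treated tumors, where Igfbp3 and Igfbp7 were low, and 4 of 11 fell. Of the pericyte and smooth muscle markers 3 of 7 tested, and of the erythroid markers 4 of 5, also fell with the combination. As a description over the 12 tumors, which share 4 treatments and their libraries, Pearson's r between a gene and a list's level was 0.84 for Igfbp3 with the macrophage, 0.83 with the erythroid and 0.75 with the endothelial markers. For Igfbp7 it was 0.80 with the pericyte and smooth muscle markers and -0.78 with the epidermal markers. Irs2 had 0.83 with the endothelial markers, and Irs1 and Igfbp2 had 0.69 and 0.74 with the fibroblast sum, which Col1a1 leads. Igfbp3 and Igfbp7 thus varied with more than 1 list, and what part of the values these cells account for was not tested. The fits with an epidermal or an endothelial score cannot decide it, since the scores themselves moved with the treatments. The epidermal score was -1.50 to -1.03 in trametinib treated tumors and 5.18 to 5.66 in combination treated tumors.

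**Figure D5:**
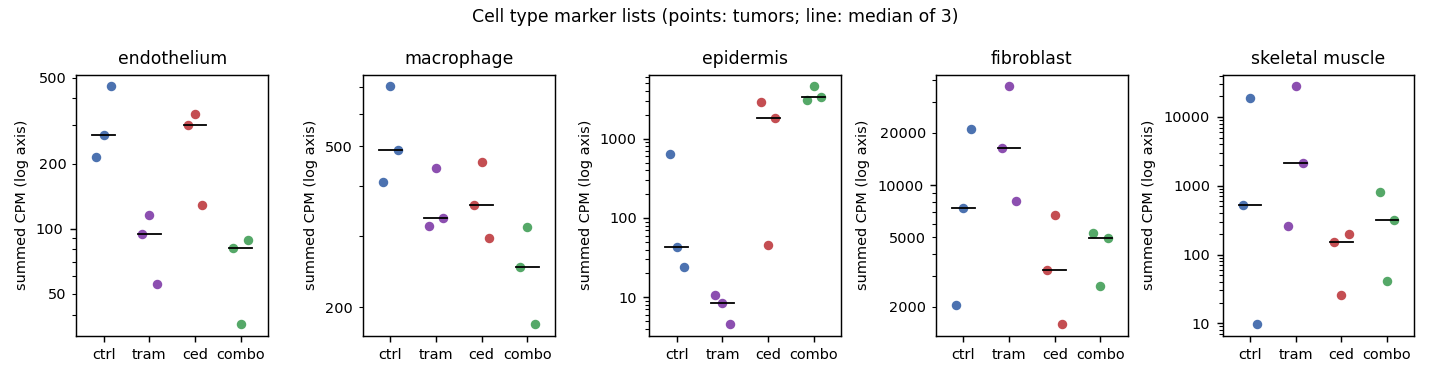
Summed CPM of 5 lists of cell type markers in each tumor (points, log axes) with the median of 3 tumors as a line, in control (ctrl), trametinib (tram), cediranib (ced) and combination (combo) treated tumors. Endothelial markers are low in both trametinib groups, epidermal markers are at 3060 CPM or more in the combination, and muscle markers peak in control 2 and trametinib 2.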

How the data were processed

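RNA of 12 SVR tumors, 3 per treatment, was captured with exome probes and sequenced, and each sample was grouped by its title and treatment label. The authors aligned reads to GRCm38 with STAR 2.7.1a and made gene counts with featureCounts 1.6.0, after bcl2fastq 1.8.4, by the submitters' processing notes. The deposited values are raw counts, with 0 columns of no sample. The sources used here do not give the annotation release, the strand setting or the handling of multiply placed reads.

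Genes were kept by filterByExpr (minimum count 10, minimum total 15), leaving 12897 of 29102 genes with a count. Counts of all 12 libraries were fitted together with TMM and the quasi-likelihood test of edgeR 4.0.16 in R 4.3.3, and p-values were adjusted by Benjamini-Hochberg over all genes tested (FDR 0.05). Log2 CPM used a prior count of 2. The code was tested on simulated data. Depth was 9478865 to 11666094 counts per library, and the common biological coefficient of variation was 27.2%.

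The 10 genes and the lists were chosen with earlier results of these data known. Pathway genes were named when past the FDR and with a log2 fold change of 1.5 or more in size, at most 20, with Dusp6 and Etv5 as controls of drug action. Overlapping genes were taken from GENCODE M21. Alternatives were DESeq2 1.42.0, median-ratio factors, library totals, no filter, only the groups compared, a replicate block, an epidermal score (mean log2 CPM of tested markers) and each library left out. An endothelial score and a fit without the 2 muscle-rich libraries were chosen after seeing the data.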

Additional observations from a re-analysis of the deposited data

How the results depend on the processing

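Over the alternatives run, Igfbp3 in combination against control kept direction and call in 14 of 15. Irs1 in trametinib against control kept its direction in 15 and its call in 6. Igfbp2 in trametinib against control also passed in 14 of 15. It entered the test through the trametinib libraries alone, so this count is no support for its rise. Depth limits Igfbp2 most, with 1 to 13 counts per group outside trametinib. Causes of the shifts below were not tested.

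The number of the 10 genes with an FDR under 0.05 depended most on the filter. Over the fits with all groups' libraries or without the muscle-rich ones, the number over all genes moved too. It ranged from 270 to 1690 for trametinib, 0 to 489 for cediranib and 14 to 2390 for the combination against control. For the combination it was 1 to 1411 against trametinib and 206 to 1722 against cediranib, and for the interaction 0 to 373. The counts below are thus no result about the 10 genes in particular. Without a filter the number of the 10 genes was 4 for trametinib and 2 for cediranib against control. It was 5 for the combination against control, 7 against trametinib and 5 against cediranib, and 2 for the interaction (Irs1 and Igfbp7). DESeq2 gave 4 with trametinib, 4 with the combination, 4 for the combination against trametinib and 2 against cediranib. For the combination against trametinib it was 1 with median-ratio factors, 1 with the endothelial score and 0 both with the epidermal score and without the muscle-rich libraries. The epidermal score left 1 for the combination against control. The endothelial score left 1 with trametinib, 0 with the combination and 0 for the combination against cediranib. Without the muscle-rich libraries it was 1 with trametinib (Irs2). Without 1 library the number ranged from 1 to 2 with trametinib, 1 to 3 with the combination, 0 to 1 against trametinib and 0 to 1 against cediranib.

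Same-numbered tumors shared only a number, with correlations of their deviations from -0.219 to 0.356 and 3 of 18 pairs over 0.1. With the replicate block the number was 2 with trametinib, 0 with cediranib, 2 with the combination, 0 for the combination against trametinib and 1 against cediranib. Igfbp5 with trametinib turned to 0.0071 and Igfbp4 in combination against cediranib to -0.0019.

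Other log2 fold changes that turned sign did so mostly under a marker score. With the epidermal score, cediranib against control gave 0.023 for Irs1, -0.050 for Igf1r, 0.0014 for Igfbp4, 0.0030 for Igfbp5 and 0.19 for Igfbp7. The combination against control gave -0.014 for Igf1r, -0.63 for Igfbp2, 0.24 for Igfbp4 and 0.17 for Igfbp5. Against trametinib it gave -0.061 for Irs2, 0.90 for Igfbp5 and 0.51 for Igfbp7, and against cediranib 0.17 for Igfbp5. The interaction gave 0.13 for Igf1, 0.33 for Igfbp3, 0.90 for Igfbp5 and 0.32 for Igfbp7. With the endothelial score, trametinib gave 0.95 for Igf1, 0.31 for Igfbp4, 2.13 for Igfbp5 and 1.33 for Igfbp7, and cediranib 0.0078 for Irs1, 0.050 for Irs2, 0.13 for Igfbp4, 0.16 for Igfbp5 and 0.13 for Igfbp7. The combination gave 0.053 for Igf1, 0.84 for Igfbp4, 1.18 for Igfbp5 and 0.27 for Igfbp7 against control, and 0.27 for Igf1, 1.02 for Igfbp5 and 0.13 for Igfbp7 against cediranib. Library totals gave 0.075 for Insr in combination against trametinib and 0.018 in the interaction. Without the muscle-rich libraries Igf1r with cediranib was -0.039 and Igfbp2 with the combination -0.028.

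Without 1 library, values that crossed 0 ranged from -0.79 to 0.47 for Igfbp5 and -0.79 to 0.0059 for Igfbp7 with trametinib. With cediranib they ranged from -0.41 to 0.048 for Irs2, -0.077 to 0.26 for Igf1r, -0.022 to 0.10 for Insr and -0.48 to 0.13 for Igfbp4. With the combination they ranged from -0.057 to 0.78 for Irs1, -0.13 to 0.81 for Igfbp2 and -0.42 to 0.17 for Igfbp4. Against trametinib it was -0.056 to 0.34 for Irs2 and -0.11 to 0.037 for Insr, against cediranib -0.015 to 0.11 for Insr and -0.16 to 0.16 for Igfbp4, and in the interaction -1.29 to 1.08 for Igfbp2 and -1.08 to 0.23 for Igfbp5.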

Other observations

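Over the 12 tumors, the genes with log2 CPM most like those of the 10 genes were found by Pearson correlation, as a description of tumors that share 4 treatments and their cell makeup. For Igfbp7 these were Serping1, an inhibitor of complement, and the chemokine Cxcl14 (r = 0.97 and 0.96). For Igfbp3 they were Plin2, which coats lipid droplets, and the vascular protocadherin Pcdh12 (0.95 and 0.95), and for Igfbp5 Pcsk7 and the matrix gene Cthrc1 (0.95 and 0.94). For Irs1 they were the matrix genes Olfml2b and Olfml3 (0.95 and 0.92), and for Igfbp2 Me1 and Tbx2 (0.92 and 0.92). For Igf1r they were Nf1 and Usp54 (0.93 and 0.92), for Igf1 Asnsd1 and Mrpl3 (0.93 and 0.91), for Igfbp4 Moxd1 and Dnah1 (0.92 and 0.86) and for Insr Gm16726 and Gm16568 (0.92 and 0.87). For Irs2 they were its overlapping transcript 9530052E02Rik and Smarca4 (0.98 and 0.94). Within groups, after each group's mean was removed, the value for Irs1 with Olfml2b was 0.95 and that for Igfbp2 with Tbx2 was 0.53.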
